A study of Mus musculus with 16 samples.

Results

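Of the 17097 mouse genes that the array's annotation names by a probe set of their own, 10 are the transcription factors that set the balance between epithelial and mesenchymal state and are described here: Ovol1, Ovol2, Grhl1, Grhl2, Grhl3, Zeb1, Zeb2, Snai1, Snai2 and Twist1. They were taken by name, with every probe set annotated to exactly 1 of these symbols and no threshold on a measured value. Earlier results of these data were known at that choice, so counts of members beside those of all probe sets are descriptive. The 10 genes have 17 probe sets, and 14 of these passed the filter on low signal and were tested. The other 3, which belong to Zeb2, are given as values without a test.

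RNA came from the luminal population of the mouse mammary gland, purified by flow cytometry, and was hybridised to 16 one-colour Affymetrix arrays in 4 groups of 4. All groups carried MMTV-Cre, a Cre recombinase transgene under the mouse mammary tumor virus promoter, which drives expression mainly in mammary epithelium, so no group without Cre serves as a reference. The first group carried MMTV-Cre alone, and the second also carried p38a-lox, the conditional allele of the stress-activated kinase p38 alpha. These animals were 9 weeks old. The third group carried MMTV-Cre with MMTV-PyMT, a transgene for the polyoma middle T oncoprotein that gives rise to mammary tumors, and the fourth carried p38a-lox with both transgenes. These animals were 6 weeks old, so an effect of PyMT and an effect of age cannot be told apart. The groups are called MMTV-Cre, p38a-lox, PyMT and p38a-lox PyMT. The labels do not say that each array came from a separate animal, so the p-values measure the spread between these arrays. Replicate numbers name arrays in the order of deposit and pair nothing.

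The epithelial side of this system rests on the Ovol zinc finger repressors and the Grainyhead-like (Grhl) factors, which maintain junctions, adhesion and barrier genes. The mesenchymal side rests on the Zeb, Snail and Twist families, which bind E-box sequences and repress epithelial genes such as E-cadherin. Each side represses parts of the other, and in the mammary gland Snai2 is known mainly from the basal layer, whereas Ovol and Grhl factors are known from luminal cells.

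Promoter windows of 300 bases, from 250 bases before to 50 after a gene's start, were read from RefSeq for GRCm38.p6 and held 10 windows of 6 members: Ovol2, Grhl1, Grhl3, Zeb2, Snai1 and Twist1. The E-box core CACCTG, which Snail and Zeb factors bind, was searched on both strands. It occurred in 6640 of 32851 promoters (20.2%) and in 2 of the 10 member windows. Grhl3 holds 2 copies, beginning at positions -19 and 9 from the gene's start, and Snai1 holds it at position -126. Neither the Grhl motif AACCGGTT (0.146% of all promoters) nor the Ovol core CCGTTA (2.76% of all promoters) was found in a member window. Those letters are compared below for Ovol2, which fell with PyMT, and for Grhl3 and Snai1, the members with an E-box. The E-box is in capitals and each sequence runs 5′ to 3′ on the gene's strand.
Ovol2, chr2:144331313-144331612, minus strand: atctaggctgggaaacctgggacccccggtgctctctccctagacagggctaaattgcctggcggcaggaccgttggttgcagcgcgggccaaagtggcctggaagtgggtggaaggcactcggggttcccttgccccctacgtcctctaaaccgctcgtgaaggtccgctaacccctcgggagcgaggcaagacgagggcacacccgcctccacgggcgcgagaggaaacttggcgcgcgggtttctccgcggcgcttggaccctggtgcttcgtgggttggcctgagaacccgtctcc
Grhl3, chr4:135573583-135573882, minus strand: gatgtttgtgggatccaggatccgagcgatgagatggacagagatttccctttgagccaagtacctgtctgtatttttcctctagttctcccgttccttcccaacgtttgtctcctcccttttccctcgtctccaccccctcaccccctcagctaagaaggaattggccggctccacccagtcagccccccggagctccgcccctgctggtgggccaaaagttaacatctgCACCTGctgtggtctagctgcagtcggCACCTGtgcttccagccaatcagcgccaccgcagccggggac
Snai1, chr2:167537945-167538244, plus strand: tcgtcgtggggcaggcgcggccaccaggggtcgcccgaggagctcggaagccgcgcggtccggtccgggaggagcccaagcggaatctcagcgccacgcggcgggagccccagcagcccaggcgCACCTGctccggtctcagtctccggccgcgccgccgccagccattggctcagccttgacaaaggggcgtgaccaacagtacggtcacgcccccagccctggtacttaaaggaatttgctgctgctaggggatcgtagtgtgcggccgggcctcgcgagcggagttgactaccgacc

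The same E-box stood in the windows of 15 of the 17 genes with a window (88.2%) among a list of epithelial differentiation and adhesion genes, against 22.6% of all 27025 genes with a window. The 15 include the tight junction genes Cldn3, Cldn4, Cldn7, Ocln and Tjp3 and the polarity gene Crb3. The list names 27 genes, and those without a window, among them Cdh1, Cdh3, Ehf and Marveld3, were not searched. The list was drawn up as known epithelial genes, so the count describes those with a window and was not tested. A match of letters is a description and not a site of binding.

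The sort was for luminal cells, and the mean log2 signal of 10 luminal marker genes lay between 10.18 and 10.78 on all 16 arrays. That of 8 endothelial markers ran from 4.37 to 4.91 over the arrays. Some basal myoepithelial markers moved with PyMT, as given beside Snai2. Array medians ran from 4.63 to 4.88, and array pairs correlated at 0.885 to 0.990 with no identical pair. The arrays p38a-lox replicate 2 and PyMT replicate 4 correlated least with the others, each with a median of 0.934. Sample titles hold numbers in a lower range (9 arrays) and a higher range (7 arrays) whose meaning is not given, so the differences of the members called are also given within each range. All values below are log2 signals or differences of log2 signals, and levels of different probe sets are not compared.

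Ovol2, the zinc finger repressor that restrains mesenchymal genes in epithelia, was the member with the largest estimated difference between arrays with and without PyMT. Its probe set (1449205_PM_at) read 7.77, 5.52, 6.72 and 6.61 in MMTV-Cre and 7.53, 6.35, 6.82 and 6.44 in p38a-lox. It read 5.24, 5.08, 4.87 and 4.56 in PyMT and 5.22, 5.14, 4.40 and 4.62 in p38a-lox PyMT. All 8 arrays with PyMT were below all 8 without it, and the nearest was MMTV-Cre replicate 2. In RNA from a sorted population, a change in the mix of cells and a change in RNA per cell cannot be told apart, here and below. Group means were 6.66 ± 0.92 (SD, n = 4), 6.79 ± 0.54, 4.94 ± 0.29 and 4.85 ± 0.40 in the same order. Those with PyMT lie near the array medians of 4.63 to 4.88.

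In the comparison of PyMT with MMTV-Cre, Ovol2 fell by 1.72 ± 0.38 (standard error), to 0.304 of the control level, with a limma adjusted p of 0.0457. It was 1 of 2 member probe sets called out of 14, where 1.06% of all 22996 probe sets tested were called at an adjusted p under 0.05. In the comparison of p38a-lox PyMT with p38a-lox, Ovol2 fell by 1.94 ± 0.38, to 0.260, with a limma adjusted p of 0.034, and it was the only member called, where 0.613% of all probe sets were. These comparisons share no array, although they share the fit's estimate of the spread. Their calls are close to the threshold. The first call was kept in 11 of 27 alternative analyses (adjusted p 0.00754 to 0.151) and the second in 21 of 27 (0.000584 to 0.133), with estimates of -2.10 to -1.35 and -2.09 to -1.69. Without p38a-lox replicate 2 and PyMT replicate 4, the estimates were -1.59 (adjusted p 0.111) and -2.09 (0.0488) in the limma fit.

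The 8 arrays with PyMT were then compared with the 8 without it as the mean of both contrasts in the same fit, a comparison added after the data were seen. Ovol2 fell by 1.83 ± 0.27, with a 95% confidence interval of -2.41 to -1.25 and a limma adjusted p of 0.00172. Here 4 of 14 member probe sets were called, 3 lower and 1 higher, beside 6% of all probe sets tested. The Ovol2 call held in all 26 alternatives run, with estimates of -2.02 to -1.64 and adjusted p of 7.27e-05 to 0.00584, and it was -1.84 (adjusted p 0.00584) without the arrays that correlated least. Within the lower and higher ranges of title numbers the difference was -1.75 and -2.02.

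**Figure D1:**
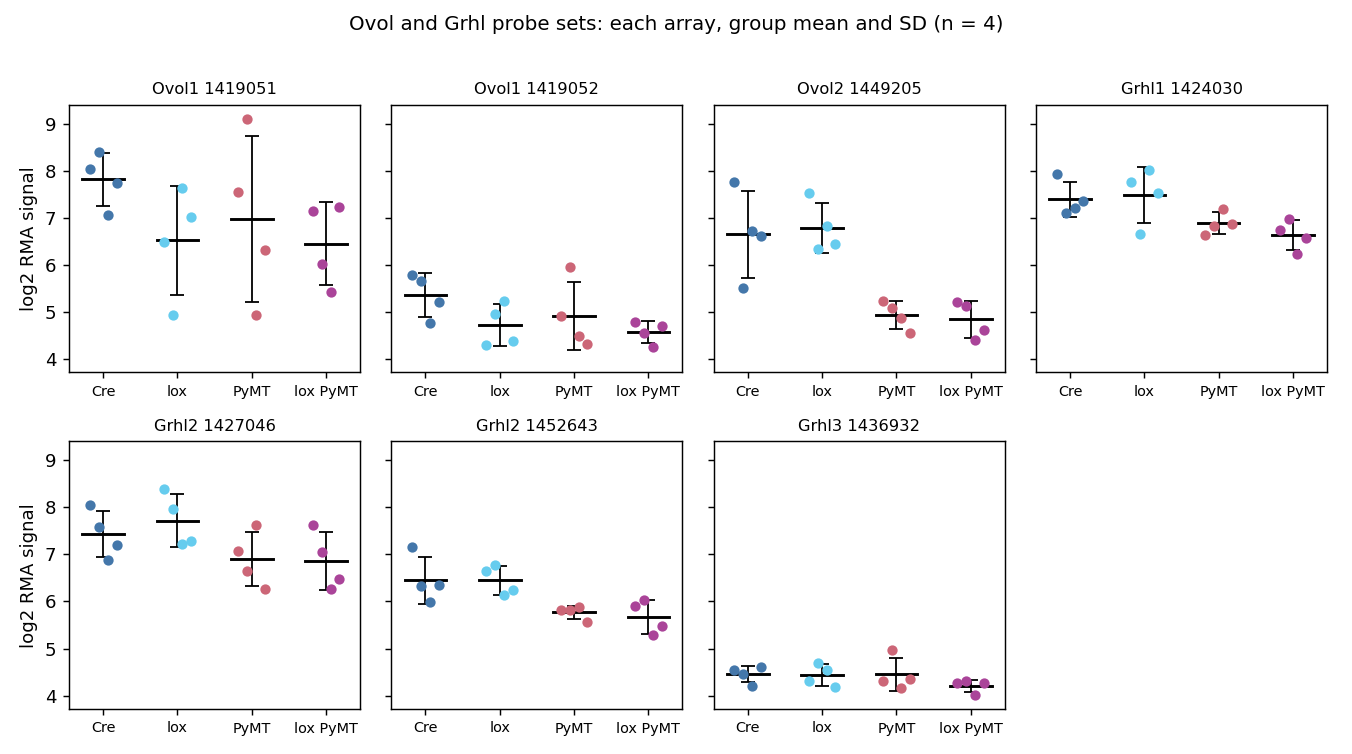
Log2 RMA signal (vertical axis) of each Ovol and Grhl probe set in the MMTV-Cre (Cre), p38a-lox (lox), PyMT and p38a-lox PyMT arrays, with 1 point per array, a bar at the group mean and whiskers of 1 SD (n = 4). For Ovol2 every PyMT array lies at or below 5.24 and every other array at or above 5.52, while Ovol1 (1419051_PM_at) spreads from 4.93 to 9.10.

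Ovol1, the paralogue of Ovol2 that promotes epithelial differentiation, varied widely between arrays of the same group on 1 of its 2 probe sets. That probe set, 1419051_PM_at, read 8.05, 8.41, 7.07 and 7.75 in MMTV-Cre, and 6.50, 4.93, 7.64 and 7.02 in p38a-lox. It read 7.55, 9.10, 4.95 and 6.32 in PyMT and 7.15, 6.03, 5.42 and 7.23 in p38a-lox PyMT. The highest and a nearly lowest array belong to the same group, PyMT replicates 2 and 3, and all groups overlap. Its within-group SD of 1.18 was above that of 99.5% of all probe sets tested.

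Ovol1 also had the largest p38a-lox estimate of any member without PyMT, at -1.30 ± 0.76, with a 95% confidence interval of -2.91 to 0.32 and a limma adjusted p of 0.999. The estimate came from the lower range of title numbers, where it was -2.51 (2 arrays against 2), while it was -0.08 in the higher range. The second Ovol1 probe set, 1419052_PM_at, ran from 4.26 to 5.95 and gave -0.63 ± 0.33 in this comparison. Its within-group SD of 0.505 was above that of 76.1% of all probe sets tested. Over the 16 arrays the pair of probe sets correlated at 0.75. Neither was called in any comparison, and for PyMT against MMTV-Cre the first gave -0.84 ± 0.76, which was -0.16 without PyMT replicate 3 and -1.55 without PyMT replicate 2.

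Grhl1 and Grhl2, which activate junction and adhesion genes such as E-cadherin in epithelia, were lower with PyMT in the pooled comparison. Grhl1 (1424030_PM_at) read 7.93, 7.10, 7.21 and 7.35 in MMTV-Cre and 7.77, 6.66, 8.01 and 7.52 in p38a-lox. It read 6.64, 6.83, 7.20 and 6.87 in PyMT and 6.75, 6.98, 6.24 and 6.58 in p38a-lox PyMT. In each comparison the arrays overlapped, with p38a-lox replicate 2 low among its group. The difference was -0.51 ± 0.27 for PyMT against MMTV-Cre (limma adjusted p 0.433) and -0.85 ± 0.27 within p38a-lox (0.177). Over all 16 arrays Grhl1 fell by 0.68 ± 0.19 with an adjusted p of 0.0467, a call kept in only 9 of 26 alternatives (0.00087 to 0.104). It was -0.82 (0.0148) without the arrays that correlated least and -0.61 (0.104) without p38a-lox PyMT replicate 3. Among arrays with lower and higher title numbers, PyMT against MMTV-Cre gave -0.73 and -0.08, and p38a-lox PyMT against p38a-lox gave -0.35 and -1.35.

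Grhl2 has a pair of probe sets that moved alike, with a correlation of 0.85 over the 16 arrays and of 0.80 after group means were removed. Probe set 1452643_PM_at read 7.15, 6.32, 5.99 and 6.34 in MMTV-Cre and 6.64, 6.77, 6.13 and 6.25 in p38a-lox. It read 5.81, 5.83, 5.88 and 5.56 in PyMT and 5.91, 6.03, 5.28 and 5.47 in p38a-lox PyMT. All PyMT arrays were below all MMTV-Cre arrays, and all p38a-lox PyMT arrays were below all p38a-lox arrays. The differences were -0.68 ± 0.24 (limma adjusted p 0.191) and -0.78 ± 0.24 (0.164), and neither was called. Over all 16 arrays it fell by 0.73 ± 0.17, with a limma adjusted p of 0.0199 and a call in 23 of 24 alternatives. That call was lost without the arrays that correlated least (-0.64, adjusted p 0.0579). By title numbers, PyMT against MMTV-Cre gave -1.0 in the lower and -0.29 in the higher range, and p38a-lox PyMT against p38a-lox -0.74 and -0.81.

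The other Grhl2 probe set, 1427046_PM_at, ran from 6.89 to 8.39 without PyMT (median 7.44) and from 6.27 to 7.62 with it (median 6.85). The 8 arrays of each kind overlapped, and its difference of -0.69 ± 0.26 was not called (limma adjusted p 0.138). Within the lower range of title numbers it was -1.06 and within the higher range -0.36. PyMT replicate 3, the only PyMT array of the higher range, read 7.62, above all arrays of its group. Grhl3, the member known from skin barrier formation and wound repair, ran from 4.18 to 4.69 without PyMT and from 4.02 to 4.96 with it, and its differences were between -0.24 and -0.01 in the 4 pairwise comparisons, none called.

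Among the mesenchymal regulators, Snai2 (Slug) rose with PyMT. Its probe set (1418673_PM_at) read 4.76, 4.78, 4.70 and 4.69 in MMTV-Cre and 4.78, 4.96, 4.72 and 4.70 in p38a-lox. It read 5.48, 5.58, 5.68 and 5.15 in PyMT and 5.42, 5.73, 5.78 and 5.08 in p38a-lox PyMT. All 8 arrays with PyMT were above all 8 without it. Group means were 4.73 ± 0.05 (SD, n = 4), 4.79 ± 0.12, 5.48 ± 0.23 and 5.50 ± 0.32 in the same order. The arrays without PyMT ran only from 4.69 to 4.96, near the array medians of 4.63 to 4.88. Whether such signals stand above background was not tested.

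Against MMTV-Cre, Snai2 in PyMT arrays rose by 0.74 ± 0.16, or 1.67-fold, with a limma adjusted p of 0.0352, a call kept in 20 of 27 alternatives (0.0117 to 0.107). It was lost when only the arrays compared were fitted (0.0944). Within p38a-lox the difference was 0.71 ± 0.16, with a limma adjusted p of 0.0557, and it passed the threshold in 7 of 27 alternatives, among them the fit without the arrays that correlated least (0.77, adjusted p 0.0418). Over all 16 arrays Snai2 rose by 0.73 ± 0.11, or 1.66-fold, with a 95% confidence interval of 0.49 to 0.97. Its limma adjusted p was 0.0021, and it was called in all 26 alternatives run (0.000328 to 0.00643). Among arrays with lower title numbers it was 0.65, and among those with higher numbers 0.81.

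Ovol2, Snai2 and Grhl2 (1452643_PM_at) were the 3 of 14 member probe sets whose arrays did not overlap between PyMT and MMTV-Cre, beside 7.06% of all probe sets tested. The same 3 did not overlap between p38a-lox PyMT and p38a-lox, beside 8.27% of all. Ovol2 and Snai2 also did not overlap between the 8 arrays with PyMT and the 8 without, beside 0.97% of all. The PyMT groups differ from the others in age as well, and this holds for each of these counts.

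**Figure D2:**
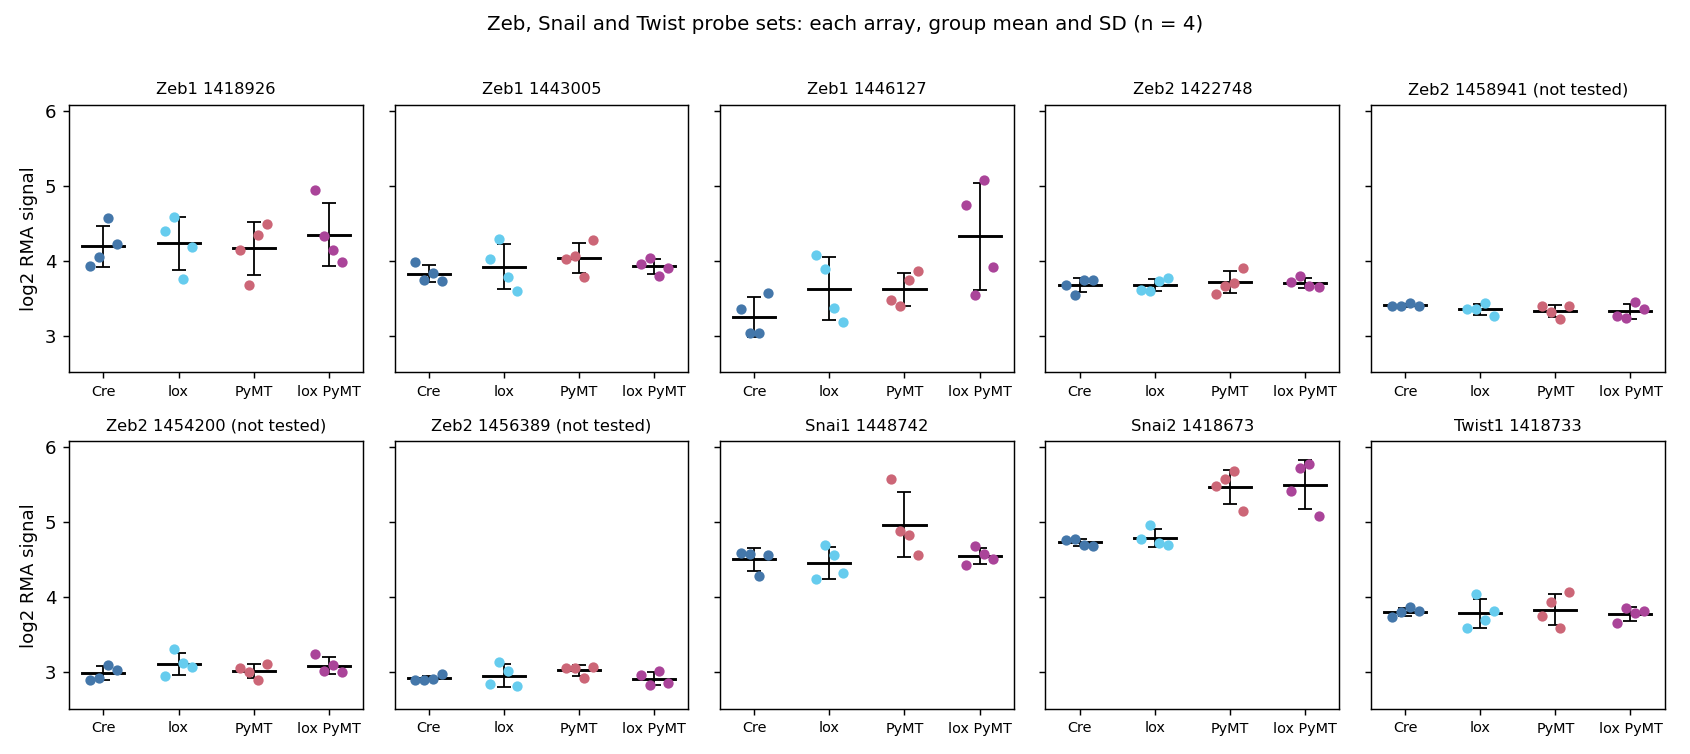
Log2 RMA signal (vertical axis) of each Zeb, Snai and Twist1 probe set in the 4 groups, with 1 point per array, a bar at the group mean and whiskers of 1 SD (n = 4). Snai2 lies at or below 4.96 on every array without PyMT and at or above 5.08 on every array with it, and the 4 Zeb2 probe sets stay between 2.81 and 3.91.

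Some markers of basal myoepithelial cells moved with PyMT as Snai2 did. Of the 8 tested, 7 pooled estimates were higher and 1 lower. For PyMT against MMTV-Cre, 6 were higher and 2 lower, among them Myh11, with means of 5.86 and 6.25. Of 8 basal genes tested, 4 rose in the pooled comparison, beside 6% of all probe sets called in either direction: Trp63, the basal lineage factor, by 1.99 (limma adjusted p 0.00112), the basal keratins Krt14 by 2.51 (0.00725) and Krt5 by 2.59 (0.00906), and Mylk, a kinase of contractile cells, by 1.61 (0.026). Their list mean ran from 5.37 to 7.57 without PyMT and from 7.12 to 8.14 with it. MMTV-Cre replicate 4 and p38a-lox replicate 4, with basal means of 7.57 and 7.23, lay within the range of the PyMT arrays, while Snai2 read 4.69 and 4.70 on them. PyMT replicate 2, with a basal mean of 7.12, read 5.58 for Snai2. Of the 4 genes called, Trp63 and Krt14 separated the arrays as Snai2 did. Trp63 ran from 4.79 to 5.81 without PyMT and from 6.20 to 7.88 with it. Krt14 ran from 5.49 to 8.55 and from 8.69 to 10.27. Krt5 met at 9.74 (6.30 to 9.74 and 9.74 to 11.52), and Mylk overlapped (4.66 to 7.16 and 6.07 to 8.39). The part of the basal markers in the Snai2 result was not tested.

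List means of markers of other cell types overlapped more between arrays with and without PyMT. Fibroblast markers (10 genes, 6 tested) averaged 4.52 to 5.35 without PyMT and 4.58 to 5.80 with it. Only Fbln1, a matrix protein, was called (0.81, limma adjusted p 0.0113). Fbln1 separated the arrays as Snai2 did, from 5.69 to 6.25 without PyMT and from 6.29 to 7.33 with it. Leukocyte markers averaged 4.64 to 5.25 and 4.85 to 5.22, with Cd68, a macrophage marker, the only gene called of 8 tested (1.75, adjusted p 0.0188). Adipocyte markers averaged 3.97 to 5.34 and 4.38 to 5.86, with none of 3 tested called. Their part in the results was not tested. None of the 10 luminal markers was called in the pooled comparison, with 7 estimates higher and 3 lower. The luminal keratin Krt8 differed by 0.13. Larger estimates were those of Cdh1 (0.55 ± 0.23, limma adjusted p 0.197) and Gata3 (-0.42 ± 0.18, 0.194).

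**Figure D3:**
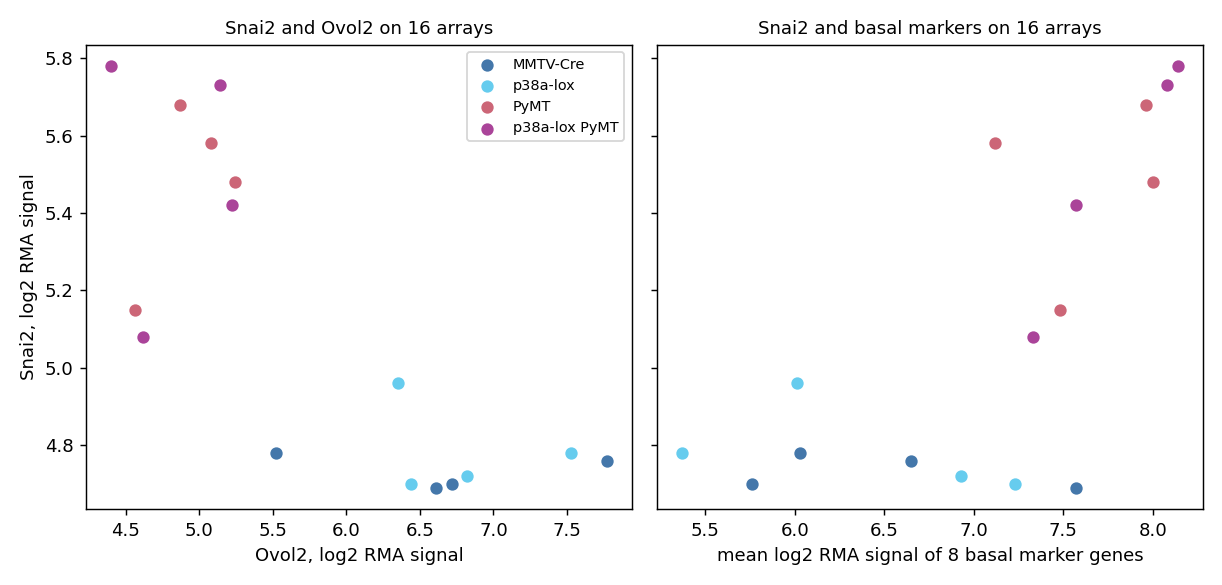
Log2 RMA signal of Snai2 (vertical axes) against that of Ovol2 (left) and against the mean log2 signal of 8 basal marker genes (right), with 1 point per array coloured by group. Arrays with and without PyMT form separate clouds on the left, and on the right MMTV-Cre replicate 4 has a basal mean of 7.57 with Snai2 at 4.69.

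Snai1 (1448742_PM_at), the paralogue that represses E-cadherin early in the transition, was high on few arrays. It read 4.59, 4.58, 4.28 and 4.57 in MMTV-Cre and 4.24, 4.70, 4.56 and 4.33 in p38a-lox. It read 5.58, 4.89, 4.83 and 4.56 in PyMT and 4.43, 4.68, 4.58 and 4.51 in p38a-lox PyMT. PyMT replicate 1 was the highest of all, and PyMT replicate 4 lay within the MMTV-Cre range, so these groups overlap. The difference between PyMT and MMTV-Cre was 0.46 ± 0.19 (limma adjusted p 0.276), and between p38a-lox PyMT and PyMT it was -0.41 ± 0.19 (unadjusted p 0.0424, limma adjusted p 1). Without PyMT replicate 1 the first was 0.25 (adjusted p 0.604). The pooled difference was 0.28 ± 0.13 (0.258). Of the alternatives run, 1 of 26 for the first and 1 of 25 for the pooled difference passed the threshold, both with arrays weighted by quality (0.79, adjusted p 0.0175, and 0.43, 0.0218).

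Zeb1, which represses epithelial genes and the miR-200 family, was low in all groups and its probe sets did not move together, with correlations of 0.20 to 0.40 between pairs. Probe set 1418926_PM_at ran from 3.68 to 4.94 and 1443005_PM_at from 3.60 to 4.29, and no comparison of either was called. Probe set 1446127_PM_at read 4.75, 3.55, 5.08 and 3.92 in p38a-lox PyMT and between 3.03 and 4.08 on all other arrays, so the high values belong to replicates 1 and 3 of that group. Its difference between p38a-lox PyMT and PyMT was 0.71 ± 0.30 (unadjusted p 0.0315, limma adjusted p 1). The other Zeb1 probe sets gave 0.18 and -0.11 in that comparison.

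Zeb2, the paralogue of Zeb1, and Twist1, a helix-loop-helix factor of mesenchymal development, had signals close to the 25th percentile of all probe sets (3.67), which was the filter. Zeb2 (1422748_PM_at) ran from 3.54 to 3.91 and its other 3 probe sets from 2.81 to 3.45. Twist1 (1418733_PM_at) ran from 3.59 to 4.07. For 1422748_PM_at and Twist1 the differences in the 4 pairwise comparisons lay between -0.05 and 0.04, and all of their 95% confidence intervals lay between -0.33 and 0.31. The untested Zeb2 probe sets differed by -0.11 to 0.12. At such signals a change in transcript may not show.

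No member was called in either p38a-lox comparison. These comparisons are between genotypes, and the level of p38 alpha RNA on the arrays is not described here. Between p38a-lox and MMTV-Cre, 0 of 14 member probe sets were called, beside 0% of all tested, and 0 of 14 had an unadjusted p under 0.05, beside 1083 of all 22996. Between p38a-lox PyMT and PyMT, 0 of 14 were called, beside 0% of all, and 2 (Snai1 and Zeb1) had an unadjusted p under 0.05, beside 848 of all. In neither comparison did the arrays of any member probe set separate, beside 2.16% and 2.64% of all. Limma was the only tool used for these counts. The median difference of the members was 0.02 and -0.09, and that of all probe sets was 0 and -0.03.

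For the members that moved with PyMT, the p38a-lox differences were small beside their errors. Ovol2 differed by 0.13 ± 0.38 without PyMT (95% confidence interval -0.69 to 0.95) and by -0.09 ± 0.38 with it (-0.91 to 0.72). Snai2 differed by 0.06 ± 0.16 (-0.28 to 0.40) and by 0.03 ± 0.16 (-0.31 to 0.36). These intervals leave room for moderate effects, and a p above the threshold does not show that the groups are alike. The interaction, which asks whether the PyMT difference changes with p38a-lox, was not called for any of 14 member probe sets (0% of all called, 659 of all at an unadjusted p under 0.05, 0 of the members). It was -0.22 ± 0.54 for Ovol2 and -0.03 ± 0.22 for Snai2.

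**Figure D4:**
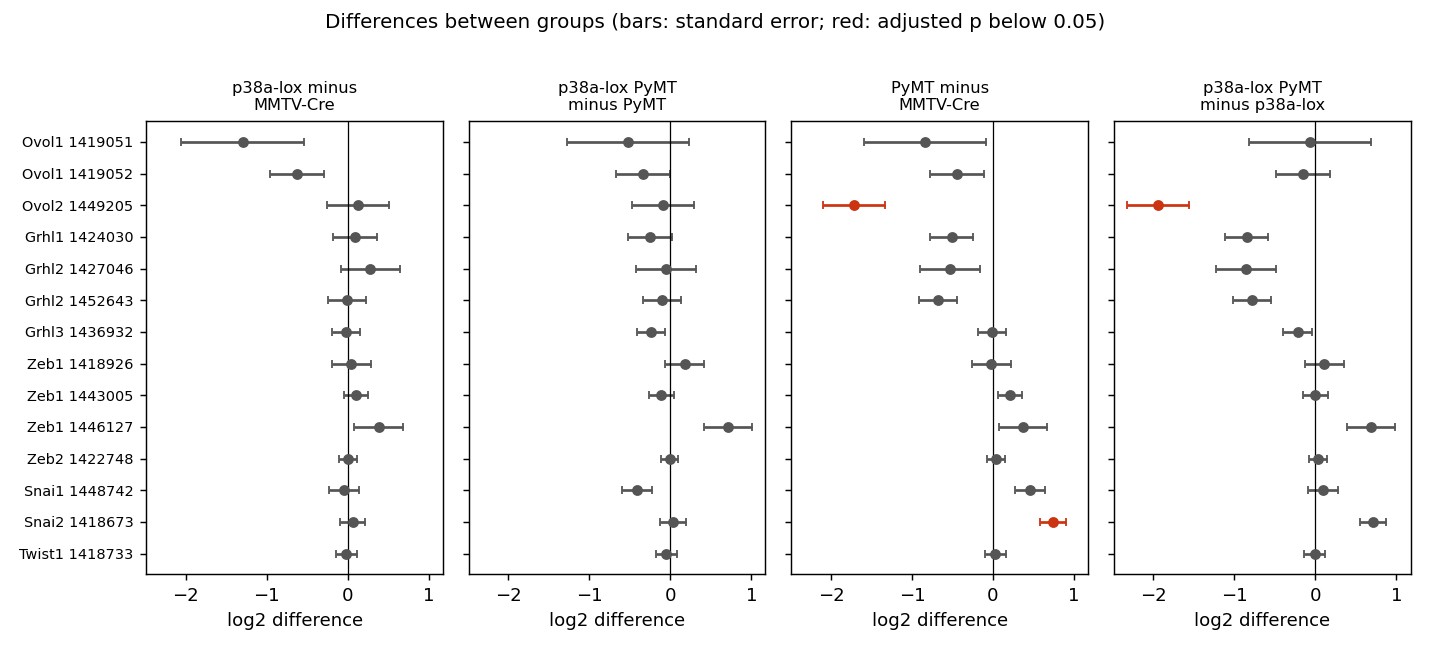
Differences of log2 signal (horizontal axes) for the 14 tested member probe sets in the 4 pairwise comparisons, with bars of 1 standard error and red where the limma adjusted p was under 0.05. Red appears for Ovol2 in both PyMT comparisons and for Snai2 in that of PyMT with MMTV-Cre, and in neither p38a-lox comparison.

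The list of epithelial differentiation and adhesion genes changed in part, and whether the members act on these genes here was not tested. Of 25 genes tested from the epithelial list, 0 were called for PyMT against MMTV-Cre (median difference -0.30, all probe sets 0.03), 1 fell within p38a-lox (median -0.20, all -0.02), and 3 fell and 1 rose in the pooled comparison (median -0.26, all 0, with 6% of all called). Marveld3, a tight junction protein, fell by 1.19 within p38a-lox (limma adjusted p 0.0324) and by 0.89 pooled (0.00621). Ehf, an epithelial Ets factor, ran from 9.89 to 10.93 in p38a-lox and from 8.80 to 8.96 in p38a-lox PyMT. Its PyMT arrays (8.89 to 9.55) lay within the MMTV-Cre range (8.56 to 11.36). Pooled, Ehf fell by 1.42 ± 0.31 (0.0165). The tight junction gene Cldn3 fell by 0.84 (0.0259). Cdh3, P-cadherin of basal cells, rose by 0.65 (0.0205). Cdh1, E-cadherin, was not called, at 0.55 ± 0.23 (0.197), with a higher mean in both PyMT groups (9.30 and 9.32) than in MMTV-Cre and p38a-lox (8.73 and 8.79).

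Of 24 mesenchymal effector genes listed, 17 were tested. None was called for PyMT against MMTV-Cre (median difference 1.05) or within p38a-lox (0.87), and 4 rose in the pooled comparison (median 1.06, all probe sets 0, with 6% of all called). Lgals1, a secreted galectin, rose by 1.64 ± 0.29 (limma adjusted p 0.00538). The matrix genes Sparc and Tgfbi rose by 2.33 (0.0154) and 1.07 (0.0258), and the matrix metalloproteinase Mmp2 rose by 1.51 (0.0297). Vim, vimentin, ran from 4.37 to 8.04 in MMTV-Cre and from 6.79 to 8.51 in PyMT, overlapping, and its pooled difference of 1.14 ± 0.57 was not called (0.285). Several of these genes are also made by fibroblasts and basal cells, whose marker levels are given beside Snai2, and their part was not tested.

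Among 25 other transcription factors of the transition and their partners, 2 fell in the pooled comparison, a share near the 6% of all probe sets called there, and none was called in either PyMT comparison alone. Foxc1, a forkhead factor, fell by 1.79 ± 0.39 (limma adjusted p 0.0153) and ran from 5.16 to 5.69 in p38a-lox PyMT against 7.07 to 8.58 in p38a-lox, whereas its PyMT arrays (6.16 to 6.71) lay within the MMTV-Cre range (5.52 to 9.03). Klf4, a zinc finger factor of epithelial differentiation, fell by 1.76 ± 0.42 (0.0245). Of 20 TGF-beta pathway genes, Fst, the activin antagonist follistatin, rose by 0.56 ± 0.12 pooled (0.0133), and no other was called, again near the share of all probe sets. Next by p were Smad7 (0.53 ± 0.16, limma adjusted p 0.0708), Tgfbr2 (1.0 ± 0.33, 0.0931) and the ligand Tgfb1 (0.80 ± 0.32, 0.163). Of the 20 pooled estimates, 13 were higher and 7 lower. In the p38a-lox comparisons and the interaction none of the genes of these 4 lists was called.

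Genes with profiles most like those of the members were found among 14409 genes by Pearson correlation over the 16 arrays, given as a description because the points share groups and arrays. Mob2, a regulator of NDR kinases, correlated with Ovol2 at 0.952 over all arrays, at 0.90 over the 8 without PyMT and at 0.94 over the 8 with it. Tcp11l2, the nearest to Ovol2 over all arrays (0.953), gave 0.87 without PyMT and 0.69 with it. Cytip (0.949) gave 0.82 in both. For Snai2 the nearest were Sparcl1 (0.954), Col18a1 (0.939) and Col11a1 (0.934), all genes of secreted matrix proteins. Within the 8 arrays without PyMT these correlated with Snai2 at only 0.52, 0.62 and 0.30, and within the 8 with PyMT at 0.77, 0.84 and 0.71. For Ovol1, Prune1 was nearest, at 0.848 over all arrays and at 0.95 and 0.80 within the 8 without and the 8 with PyMT. For Grhl1, Slc35g1 was nearest (0.902), at 0.94 within the 8 arrays without PyMT but only 0.32 within the 8 with it. For Grhl2 (1427046_PM_at) it was Slmap (0.895), at 0.94 and 0.75 within them. For Twist1, whose values lie close to the filter and span 0.48 in all, it was Tbx4 (0.919), at 0.93 and 0.94. Whether such low signals stand above background was not tested.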

How the data were processed

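RNA of 16 sorted luminal samples was measured on Affymetrix arrays. The deposited values are log2 signals that the authors made with RMA, per the submitters' processing notes, of which the sources used here name neither version nor settings. RMA usually equalises the arrays' distributions, which removes changes shared by most probe sets, yet array medians here still ran from 4.63 to 4.88. Of 45141 probe sets, 28898 have 1 gene symbol in the platform annotation, 551 several and 15692 none here; 28689 matched RefSeq (GRCm38.p6) by Entrez ID, and 0 symbols changed.

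The 22996 single-symbol probe sets whose mean was at or above the 25th percentile (3.67) were tested with limma 3.58.1 in R 4.3.3 (lmFit and eBayes, all arrays, 12 residual degrees of freedom), two-sided, with Benjamini-Hochberg adjustment and a threshold of 0.05. Genes of the lists were taken by their probe set of highest mean. The script was tested on simulated data. Alternatives covered filter, probe set choice, normalization, weights, title range, arrays fitted and leaving out each array. The members and lists were chosen with earlier results of these data known. Named genes were the members, up to 4 genes a list with the smallest p, and up to 3 genes of most similar profile; Cdh1 and Vim were added as hallmark genes after their values were seen, and markers stand beside the results they touch. The number of arrays limits precision.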

Additional observations from a re-analysis of the deposited data

Results flagged for a closer look

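Of 68 sets of 4 arrays checked, 3 held an array far from the other 3, where chance gives about 1 in 20 sets. Snai1 read 4.28 on MMTV-Cre replicate 3, with the others at 4.57 to 4.59. Grhl3 read 4.02 on p38a-lox PyMT replicate 3, with the others at 4.26 to 4.31. The untested Zeb2 probe set 1456389_PM_at read 2.92 on PyMT replicate 3, with the others at 3.05 to 3.07.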

How the results depend on the processing

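The count of members called for PyMT against MMTV-Cre, 2, became 1 with no filter, 1 with each array centred on its median, 1 without the 2 arrays that correlated least and 0 when only the arrays compared were fitted, and ran from 0 to 2 when each array was left out. The count within p38a-lox, 1, became 2 with the mean of a gene's probe sets, 2 after a second quantile normalization, 2 with centring, 3 with array weights and 3 without the 2 arrays that correlated least, and ran from 0 to 2 when each array was left out. Of the arrays compared, Ovol2 was no longer called against MMTV-Cre without MMTV-Cre replicates 1, 3 or 4 or PyMT replicates 1, 3 or 4, and Snai2 without MMTV-Cre replicates 1, 3 or 4 or PyMT replicates 1 or 3. Within p38a-lox, Ovol2 was no longer called without p38a-lox replicates 1 or 3 or p38a-lox PyMT replicates 2, 3 or 4. Leaving out arrays outside the comparison ended calls too: p38a-lox replicates 3 or 4 or any p38a-lox PyMT array for Ovol2 and p38a-lox replicate 3 for Snai2 against MMTV-Cre, and MMTV-Cre replicate 3 for Ovol2 within p38a-lox. The fit shares its estimate of the spread over all groups, so leaving out such an array alters errors and adjusted p but not the estimate. Which of these ended each call was not tested. The pooled count of 4 ran from 3 to 5 over the alternatives, and the other 3 comparisons stayed at 0 members in every alternative.

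No called value of a member reversed. Over all probe sets, the calls for PyMT against MMTV-Cre (243) became 1916 with array weights, 69 with only the arrays compared and 70 to 619 when arrays were left out. Those within p38a-lox (141) became 2167, 214 and 27 to 297. The pooled count (1380) became 4162 with array weights, 891 with 1 probe set a gene and as few as 806 without p38a-lox PyMT replicate 3. The p38a-lox counts of 0 became at most 9, with array weights, and the interaction at most 1. For the interaction and the pooled comparison, fitting only the arrays compared changes nothing, since all arrays enter. No paired analysis was possible because the labels give no replicate numbers that groups share.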
